A study of Mus musculus with 10 samples.

Results

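The genes described here encode the enzymes and regulators of de novo lipogenesis, the making of fatty acids from acetyl-CoA, in interscapular brown adipose tissue of the mouse. They were chosen by name as 10 symbols of the count table (Acly, Acss2, Acaca, Acacb, Fasn, Me1, Thrsp, Mid1ip1, Mlxipl and Srebf1), of 20295 genes in all. Each symbol occurred on 1 row, and all 10 were among the 11229 genes with enough reads to be tested. Poly-A selected RNA was sequenced from 10 single-housed, chow-fed male C57BL/6JBomTac mice, 8 weeks old, with no transgene or further agent given. The control group was 5 mice at 22 °C, which for a mouse is itself below thermoneutrality, and the cold group was 5 mice at 4 °C for 3 days. The tissue is heat-producing fat. Its 10 brown adipocyte markers together summed to 26300 to 30300 CPM (a count scaled to a common library total) per control mouse. At 4 °C their sum was 36500 to 41700 CPM per mouse. The markers did not move as one, since 3 of the 10 were called higher and 2 lower at 4 °C. Ucp1 went from a mean of 9120 to 18500 CPM, whereas Adipoq went from 1090 to 661 CPM.

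In this pathway, citrate exported from mitochondria is split by ATP citrate lyase, or free acetate is activated by acetyl-CoA synthetase, to give cytosolic acetyl-CoA. Acetyl-CoA carboxylase turns it into malonyl-CoA, and fatty acid synthase extends it to palmitate with NADPH that malic enzyme helps to supply. Malonyl-CoA also blocks the entry of fatty acids into mitochondria, so that the pathway is tied to fat burning as well as to fat storage. The transcription factors SREBP-1 (Srebf1) and ChREBP (Mlxipl) respond to insulin and to glucose. Brown fat is known for running fatty acid synthesis and oxidation side by side during cold exposure.

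Library totals were 4446163 to 5776905 counts in control and 5676963 to 6923932 counts in cold mice. On the second principal component of log2 counts, control replicate 2 lay at -36.5 against 2.3 to 23.7 in the other controls, and cold replicate 5 at -23.5 against -0.9 to 6 in the other cold libraries. Where leaving these libraries out changed the call of a member between groups, values with and without them are given below. CPM were computed on library totals scaled by TMM, which corrects for differences in RNA composition. The mean of 5 libraries is given with its SD, and coordinates of genes are those of the mouse build mm9.

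Of the 10 genes, 2 fell and 0 rose in the cold (edgeR's quasi-likelihood test, adjusted p under 0.05 over all genes tested). That is 20% of the members called lower, where 9.14% of all genes tested were lower, 10.2% higher and 19.3% called in either direction. The genes that fell were Acss2, the acetyl-CoA synthetase, to 0.299 of its control level, and Acaca, the cytosolic acetyl-CoA carboxylase, to 0.592. At an unadjusted p under 0.05 in edgeR, 4 members were lower and 0 higher, a count with no share of all genes beside it here. DESeq2 and limma-voom likewise called 2 lower and 0 higher. In either direction they called 2451 and 2135 of the 11229 genes tested. The median log2 fold change of the members was -0.49, with 8 of 10 negative, against -0.02 and 52.3% negative over all genes tested. In a bulk sample, fewer cells of a type and less RNA per cell cannot be told apart.

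Control replicate 2 held the lowest level of the controls for all 10 genes, and without it 6 members fell. These 6 (60%) were Acly, Acss2, Acaca, Fasn, Me1 and Srebf1, where 10.2% of all genes tested were lower in that fit. Without cold replicate 5 alone, 3 members fell (Acss2, Acaca and Fasn), where 2441 of 11411 genes tested were called in either direction. Without control replicate 2 and cold replicate 5 together, 7 members fell (70%), the 6 and Thrsp, against 11.7% of all genes. Leaving out the lowest control raises the control mean of every member by construction. Cold replicate 5 held the highest cold level of 6 members, and leaving it out lowers their cold mean. The calls gained in these fits are therefore not independent support for a fall, and the share of all genes does not correct for this. The call of Acaca was lost without control replicate 5 or without cold replicate 2, 3 or 4, so that 1 member fell there.

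**Figure D1:**
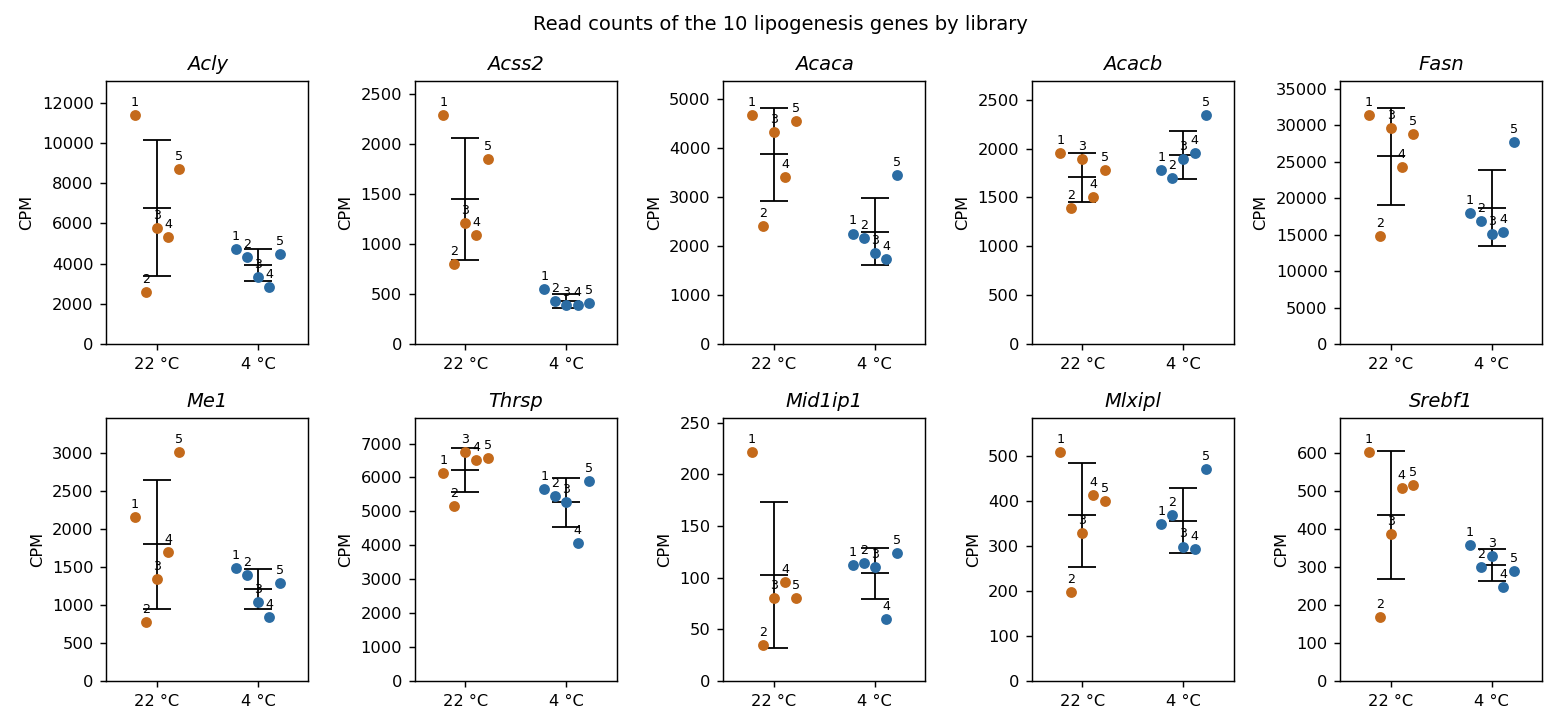
Level in CPM (linear axis from 0) of each gene in each library, with the replicate number above each point; bars are mean ± SD over 5 libraries. For Acss2 the cold libraries, at 388 to 551 CPM, lie below all controls, at 804 to 2290, while control replicate 2 is the lowest control in every panel.

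Promoter sequences of 4 members are shown, so that Acss2, which fell most, can be set beside its partner in acetyl-CoA supply, Acly, beside Fasn, and beside Acacb, which was not lower. Each is the 250 bases before a start site in RefSeq's annotation of GRCm38, a different build from that of the counts, written 5′ to 3′ toward the start. Capitals mark the matches of 5 motifs, searched on both strands.
Acly (GRCm38 chr11:100528001-100528250, minus strand): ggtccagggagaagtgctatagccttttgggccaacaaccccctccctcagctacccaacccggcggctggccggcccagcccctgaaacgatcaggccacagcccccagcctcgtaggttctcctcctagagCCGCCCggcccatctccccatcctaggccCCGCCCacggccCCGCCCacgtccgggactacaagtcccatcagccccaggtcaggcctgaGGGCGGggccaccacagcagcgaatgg
Acss2 (GRCm38 chr2:155517793-155518042, plus strand): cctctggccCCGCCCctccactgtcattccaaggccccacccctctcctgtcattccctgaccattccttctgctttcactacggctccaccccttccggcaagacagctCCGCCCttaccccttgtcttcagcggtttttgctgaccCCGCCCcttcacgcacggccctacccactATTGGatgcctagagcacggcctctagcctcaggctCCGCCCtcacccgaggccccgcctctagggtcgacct
Acacb (GRCm38 chr5:114165268-114165517, plus strand): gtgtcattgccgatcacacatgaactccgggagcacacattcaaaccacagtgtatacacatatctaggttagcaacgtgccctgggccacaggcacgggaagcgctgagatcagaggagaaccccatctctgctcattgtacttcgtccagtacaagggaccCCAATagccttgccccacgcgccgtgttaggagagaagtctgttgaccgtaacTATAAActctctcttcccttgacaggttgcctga
Fasn (GRCm38 chr11:120824548-120824797, minus strand): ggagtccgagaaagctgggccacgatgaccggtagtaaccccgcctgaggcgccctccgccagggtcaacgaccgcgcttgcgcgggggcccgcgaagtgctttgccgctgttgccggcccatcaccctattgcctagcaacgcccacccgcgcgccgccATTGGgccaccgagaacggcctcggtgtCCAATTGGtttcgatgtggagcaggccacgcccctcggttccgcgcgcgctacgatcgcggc

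The motifs were the GC box GGGCGG, the CCAAT box CCAAT, the TATA box TATAAA, the E-box CACGTG and the sterol regulatory element TCACNCCAC. They occur in 32.7%, 33.8%, 12.4%, 6.02% and 1.05% of the 32851 windows of this length in the table. The windows of Acly and Acss2 each held 4 GC boxes. That of Fasn held 3 CCAAT boxes and no GC box, and the second and the third of these boxes overlap as CCAATTGG. The window of Acacb was the only window among the members with a TATA box, 34 to 29 bases before the start (-34 to -29), and it held 1 CCAAT box. All 10 genes had an entry, with 14 start sites. Of these 14 windows 8 held a CCAAT box and 7 a GC box, and the E-box and the sterol element each occurred in 1 window, at different start sites of Mlxipl. The entry of Acaca is not shown, since the bases after its listed start lie inside longer annotated transcripts. A match is a run of letters and not a measured binding site.

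Per kilobase of counted sequence, the levels of these genes spanned 2 orders of magnitude. In control libraries Thrsp stood highest at 5990 ± 619 CPM per kilobase, followed by Fasn at 2590 ± 671 and Acly at 1540 ± 767. A middle group of Me1 (557 ± 263), Acss2 (534 ± 223) and Acaca (428 ± 106) did not differ beyond the spread between libraries. Acacb followed at 201 ± 29.0 CPM per kilobase. The 2 transcription factors, Srebf1 at 104 ± 40.1 and Mlxipl at 101 ± 31.7, were within each other's spread, and Mid1ip1 was lowest at 49.9 ± 34.2. In the cold, Acaca (253 ± 75.4) and Acacb (228 ± 29.2) lay within each other's spread, and Acss2 was below both at 160 ± 25.1. Of all counts, the members together held 4.77 ± 1.19% in the controls and 3.46 ± 0.582% in the cold. Fasn accounted for 2.54 ± 0.622% and 1.87 ± 0.430%.

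Both sources of cytosolic acetyl-CoA were measured. Acss2 (chromosome 2, 155343779 to 155388479), which activates acetate, was at 2290, 803.6, 1216, 1095 and 1858 CPM in control replicates 1 to 5 and at 551.5, 436.2, 389.2, 387.5 and 408.5 CPM in cold replicates 1 to 5. No cold library reached the lowest control, which was the case in this direction for 1 of 10 members (10%) and for 6.57% of all genes tested. Acss2 fell by 1.74 on the log2 scale (SE 0.24, adjusted p = 0.000363 in edgeR's quasi-likelihood test), and it stayed called in all 10 fits without 1 library. Acly (chromosome 11, 100337666 to 100389314), which splits citrate, was at 11370, 2601, 5785, 5320 and 8723 CPM in the controls and at 4716, 4345, 3343, 2825 and 4468 CPM in the cold. Control replicate 2 was the lowest of the 10 libraries and every other control lay above every cold library. With all libraries the log2 fold change of Acly was -0.78 (SE 0.30, adjusted p = 0.0871), and without control replicate 2 it was -0.99 (adjusted p = 0.00565).

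Within each library, Acss2 was scarcer relative to Acly in the cold. The ratio of their levels per kilobase was 0.326 to 0.499 in control and 0.148 to 0.222 in cold libraries, with no overlap. The difference was -1.01 on the log2 scale (exact permutation test over the 10 libraries, two-sided p = 0.00794, the smallest this design allows, and 0.0159 adjusted over the 4 ratios tested). A ratio within a library does not depend on the scaling, and it shows that the genes changed unequally, not that either was constant. These ratios were chosen after the values were seen, as the pairs of members with the same role.

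The carboxylases, which make malonyl-CoA, parted in the cold. Acaca (chromosome 11, 84008940 to 84215153), whose cytosolic product feeds fatty acid synthase, was at 4658, 2401, 4310, 3408 and 4540 CPM in the controls and at 2253, 2170, 1850, 1727 and 3442 CPM in the cold. Control replicate 2 fell among the cold libraries, and cold replicate 5 among the controls. Acaca fell by 0.76 on the log2 scale (SE 0.21, adjusted p = 0.0215 in edgeR's test). The adjusted p was 0.0525 without control replicate 5, and 0.0534, 0.0612 and 0.058 without cold replicates 2, 3 and 4. Leaving out control replicate 2 and cold replicate 5 together gave -1.08 (adjusted p = 2.72e-05).

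Acacb (chromosome 5, 114615527 to 114700767) encodes the carboxylase of the outer mitochondrial membrane, whose malonyl-CoA restrains fatty acid import. Its level was 1955, 1388, 1888, 1506 and 1785 CPM in the controls and 1778, 1699, 1892, 1954 and 2339 CPM in the cold. The groups overlapped, and the log2 fold change of 0.18 did not pass (SE 0.12, 95% interval -0.07 to 0.43, adjusted p = 0.293 in edgeR's test). Relative to Acaca in the same library, Acacb was at 0.418 to 0.615 per kilobase in control and at 0.723 to 1.20 in cold mice. This ratio was higher in every cold library than in any control, by 0.94 on the log2 scale (exact permutation test, two-sided p = 0.00794, the smallest possible, and 0.0159 adjusted over the 4 ratios).

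**Figure D2:**
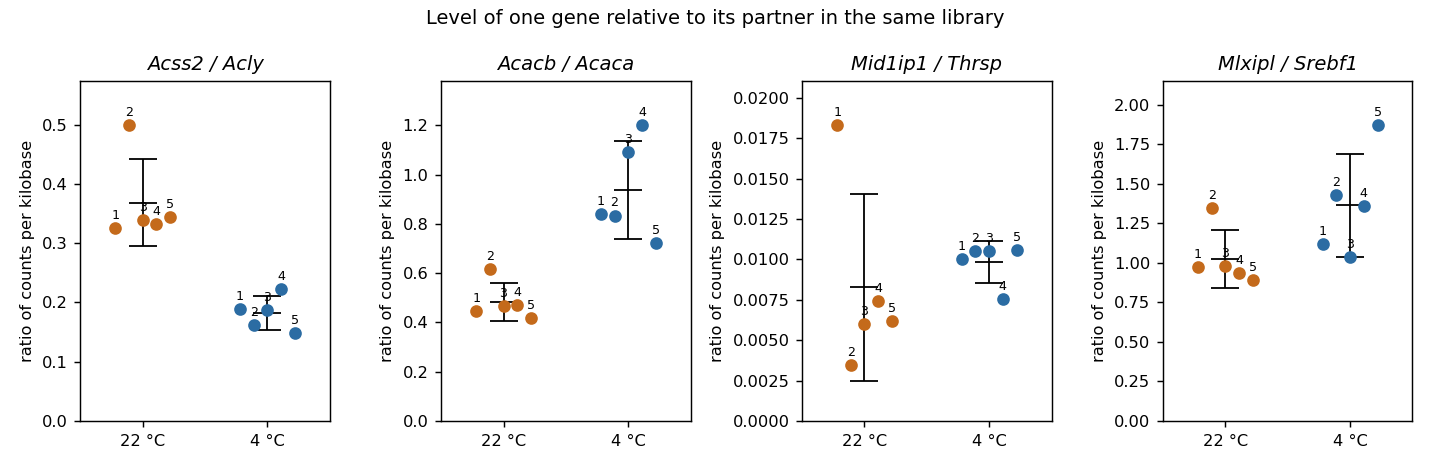
Ratio of counts per kilobase of one gene to its partner of the same role in the same library (linear axes from 0), with the replicate number at each point and bars for mean ± SD over 5 libraries. Acss2 over Acly is lower, and Acacb over Acaca higher, in all cold than in all control libraries, while the other pairs overlap.

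Fasn (chromosome 11, 120667272 to 120685861), fatty acid synthase itself, carried the most counts of the members. It was at 31380, 14810, 29610, 24250 and 28780 CPM in control replicates 1 to 5 and at 17950, 16950, 15100, 15440 and 27730 CPM in the cold replicates. Control replicate 2 lay below every cold library, and cold replicate 5 lay within the range of the controls. The log2 fold change was -0.47 (SE 0.21, adjusted p = 0.133 in edgeR's test). Leaving out control replicate 2 gave -0.62 (adjusted p = 0.0174), and leaving out cold replicate 5 gave -0.66 (adjusted p = 0.0216). Without both it was -0.81 (SE 0.10, adjusted p = 5.9e-05). Me1 (chromosome 9, 86474970 to 86589947), the cytosolic malic enzyme, ranged from 779 to 3010 CPM (median 1700) in control and from 837 to 1490 CPM (median 1290) in cold libraries. The groups overlapped, and its log2 fold change of -0.57 (SE 0.28, adjusted p = 0.173) passed without control replicate 2, at -0.77 (adjusted p = 0.0223).

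Thrsp (Spot 14) and Mid1ip1 (also known as Spot 14-related or Mig12) encode related small proteins that act on acetyl-CoA carboxylase, Mid1ip1 by promoting its polymerisation. Thrsp (chromosome 7, 104561467 to 104566020) was at 6121, 5147, 6749, 6503 and 6579 CPM in the controls and at 5670, 5451, 5267, 4057 and 5909 CPM in the cold. All 5 cold libraries lay below the control median, and the log2 fold change was -0.24 (SE 0.11, 95% interval -0.48 to 0.00, adjusted p = 0.15 in edgeR's test). It passed without control replicate 2 and cold replicate 5, at -0.35 (adjusted p = 0.022). Mid1ip1 (chromosome X, 10294491 to 10296828) was at 222, 35.1, 80.0, 95.7 and 80.7 CPM in the controls and at 112, 114, 110, 60.4 and 124 CPM in the cold. Control replicates 1 and 2 were the highest and the lowest of the 10 libraries, 6.31-fold apart. The log2 fold change was 0.02 with an interval of -0.76 to 0.80 (adjusted p = 0.972), which leaves room for changes in either direction. Its sign turned in 7 of the 10 fits without 1 library, where it lay between -0.20 and 0.51. The ratio of Mid1ip1 to Thrsp per kilobase was 0.00344 to 0.0183 in control and 0.00752 to 0.0106 in cold libraries (exact permutation p = 0.333, two-sided). Without control replicate 1 the ratio was higher in the cold by 0.82 on the log2 scale (exact permutation p = 0.0159). That control held the highest control ratio, so leaving it out widens the difference by construction. Without any other single library the exact permutation p lay between 0.262 and 0.595.

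Of the transcription factors, Srebf1 (chromosome 11, 60012591 to 60034106) encodes SREBP-1, a membrane-bound factor that is cleaved to act on lipogenic genes. It was at 601, 168, 386, 507 and 515 CPM in the controls and at 358, 298, 329, 248 and 290 CPM in the cold. With control replicate 2 set aside, every control lay above every cold library. The log2 fold change was -0.52 (SE 0.25, adjusted p = 0.167 in edgeR's test) with all libraries and -0.73 (SE 0.13, adjusted p = 0.00154) without control replicate 2. Mlxipl (chromosome 5, 135582761 to 135614252) encodes the carbohydrate-responsive factor ChREBP. Its level ran from 198 to 509 CPM (median 400) in control and from 293 to 471 CPM (median 349) in cold libraries, with a log2 fold change of -0.05 (95% interval -0.50 to 0.39, adjusted p = 0.88). It was -0.34 (adjusted p = 0.0602) without control replicate 2 and cold replicate 5. Mlxipl relative to Srebf1 per kilobase was 0.893 to 1.35 in control and 1.04 to 1.87 in cold libraries (exact permutation p = 0.0556, two-sided, and 0.0741 adjusted over the 4 ratios). Without control replicate 2 the p was 0.0238, and without cold replicate 5 as well it was 0.0286. Control replicate 2 held the highest control ratio, so leaving it out alone widens the difference by construction. Over all fits without 1 library the p lay between 0.0238 and 0.119, and 3 were under 0.05. Gene-level counts do not separate the SREBP-1a and SREBP-1c transcripts, nor the alpha and beta forms of ChREBP. The gene model of Srebf1 overlaps Rai1 on the opposite strand by 107 bases, and the level of Rai1 was 25.6 CPM in the controls and 21.3 CPM in the cold.

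**Figure D3:**
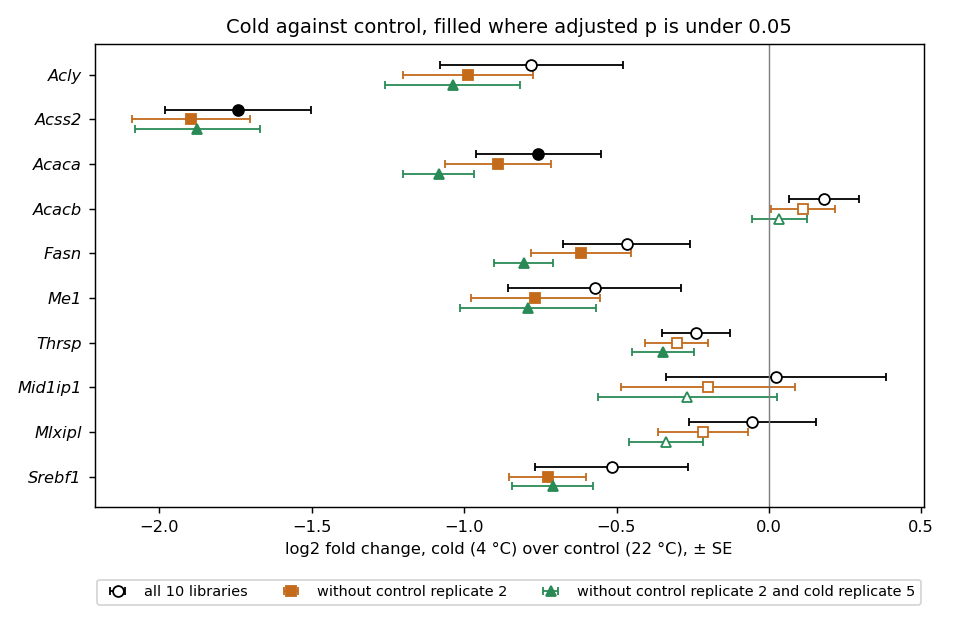
Log2 fold change of cold over control (x axis) with its SE for each gene, from all 10 libraries, without control replicate 2, and without control replicate 2 and cold replicate 5; filled symbols have an adjusted p under 0.05. With all libraries 2 genes are filled, and 6 and 7 are filled in the smaller sets, while Acacb stays near 0 at 0.18, 0.11 and 0.03.

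The authors' deposited table, made with edgeR, gives an adjusted p under 0.05 to 3 members. These are Acss2 (1.04e-12), Acaca (0.00197) and Acly (0.0263) in the authors' deposited table. No share of all genes called in that table stands beside this count, so whether 3 members is high cannot be told. The log2 fold changes of that table, from -1.74 for Acss2 to 0.18 for Acacb, differ from those given here by less than the SE of each gene.

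Libraries of the same group differed from each other over the whole set of genes. In control replicate 2 the 10 members had a median deviation of -0.99 (log2) from the mean of the other controls. In control replicate 1 the members' median deviation was 0.58, with the highest control level for 8 of them. Cold replicate 4 held the lowest cold level of 8 members (median deviation -0.40), and cold replicate 5 the highest of 6 (0.31). The spread also differed between genes. Among controls, Mid1ip1 had a coefficient of variation of 68.5%, Acly of 49.9%, Me1 of 47.1% and Acss2 of 41.7%, whereas Thrsp and Acacb were at 10.3% and 14.4%. Without control replicate 2 these were 57.3%, 36.1%, 35.3% and 34.7%, and 4.09% and 11.1%. Among cold libraries the coefficients of Acly and Acss2 were 20.6% and 15.7%.

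Markers of brown adipocytes and of other cell types were read beside these deviations. The 7 white adipocyte markers summed to 50.2 to 176 CPM in control and 27.9 to 126 CPM in cold libraries. Their lowest values were in control replicate 2 (50.2) and cold replicate 5 (27.9), of which the first held low and the second high levels of the lipogenic genes. Of these markers Hoxc9 and Tcf21 had no count in any library. Of 5 tested, 0 were lower and 1 was higher in the cold. Fibroblast markers summed to 379 and 250 CPM in these same libraries, also the lowest of each group, within 379 to 587 CPM in control and 250 to 888 CPM in cold. Among brown adipocyte markers, Ppargc1a was at 993 CPM in control replicate 2, the highest of all libraries. Its control mean of 302 CPM includes that value, its lowest control was at 81.5 CPM, and its cold maximum was 343 CPM. In control replicate 2 Adipoq and Fabp4 were also highest of the controls, at 1360 and 13000 CPM, while Prdm16 and Plin1 were lowest, at 24.9 and 767 CPM. Skeletal muscle markers were at 5.78 to 78.3 CPM in control and 7.11 to 329 CPM in cold libraries, macrophage markers at 89.6 to 200 and 68.1 to 340 CPM, and endothelial markers at 595 to 770 and 746 to 893 CPM. Lymphocyte, nerve and liver markers reached 5.59, 246 and 3.18 CPM at most. The part of any of these in the values of the lipogenic genes was not tested.

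**Figure D4:**
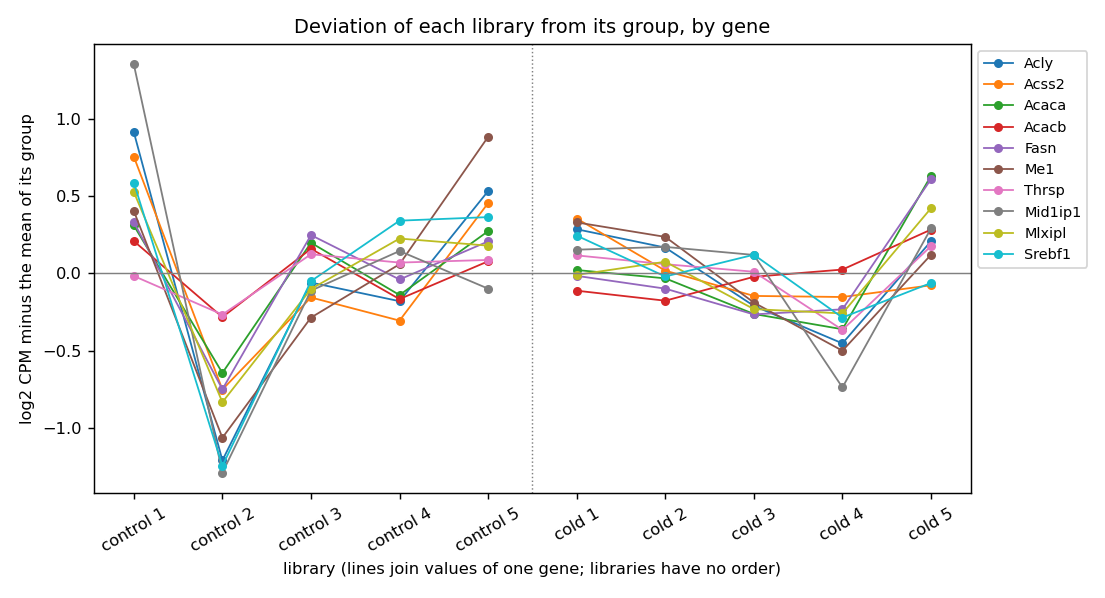
Log2 CPM of each gene minus the mean of its group (y axis) in each library (x axis); lines join values of a gene and imply no order. All 10 genes lie below 0 in control replicate 2, and Acaca and Fasn stand highest in cold replicate 5.

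Covariation was measured on these deviations from the group means, so that the difference between cold and control does not enter. Over 10 libraries, all 45 pairs of members had a positive Pearson r, with a median of 0.72 and a range of 0.35 to 0.98, and 26 pairs (57.8%) exceeded 0.7. Of all genes ranked, 1.86% (for Thrsp) to 8.42% (for Srebf1) exceeded an r of 0.7 with a given member. The closest pair was Acaca and Fasn, at 0.98, which catalyse successive steps. Acly and Acss2, the sources of acetyl-CoA, had an r of 0.94, and Acly and Me1 of 0.91. The loosest pairs were those of Acacb with Thrsp (0.35) and with Me1 (0.39). The points of a pair share the library, its depth and its scaling. The median r with the other members ran from 0.54 for Acacb to 0.89 for Acly, where the top 10% of all genes ranked began at an r of 0.48 (Thrsp) to 0.67 (Srebf1). Acacb, for which it began at 0.57, was the one member whose median r with the others lay below that mark. Among the 100 genes with the highest r to each member, 0 (Thrsp and Srebf1) to 3 (Fasn, Me1 and Mlxipl) were other members.

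Without control replicate 2 and cold replicate 5, the median r of the 45 pairs was 0.48, from -0.41 to 0.95, 14 pairs (31.1%) exceeded 0.7, and 4 pairs were negative, each of them with Acacb. No share of all genes over 0.7 was computed for these 8 libraries, so whether 31.1% is high cannot be told. Acly and Acss2 stayed at 0.95 and Acaca and Fasn at 0.94 in these 8 libraries. Mid1ip1 and Mlxipl were at 0.81, Mid1ip1 and Srebf1 at 0.78 and Mlxipl and Srebf1 at 0.77. Fasn with Thrsp (0.29), with Srebf1 (0.26) and with Mlxipl (0.40) were far lower than with all libraries. Within the 5 cold libraries alone, Srebf1 and Fasn had an r of -0.02, against 0.91 within the 5 controls. The controls here include replicate 2, and the cold libraries include replicate 5. Neither r was computed without that library, so no difference between the groups is read from these values.

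**Figure D5:**
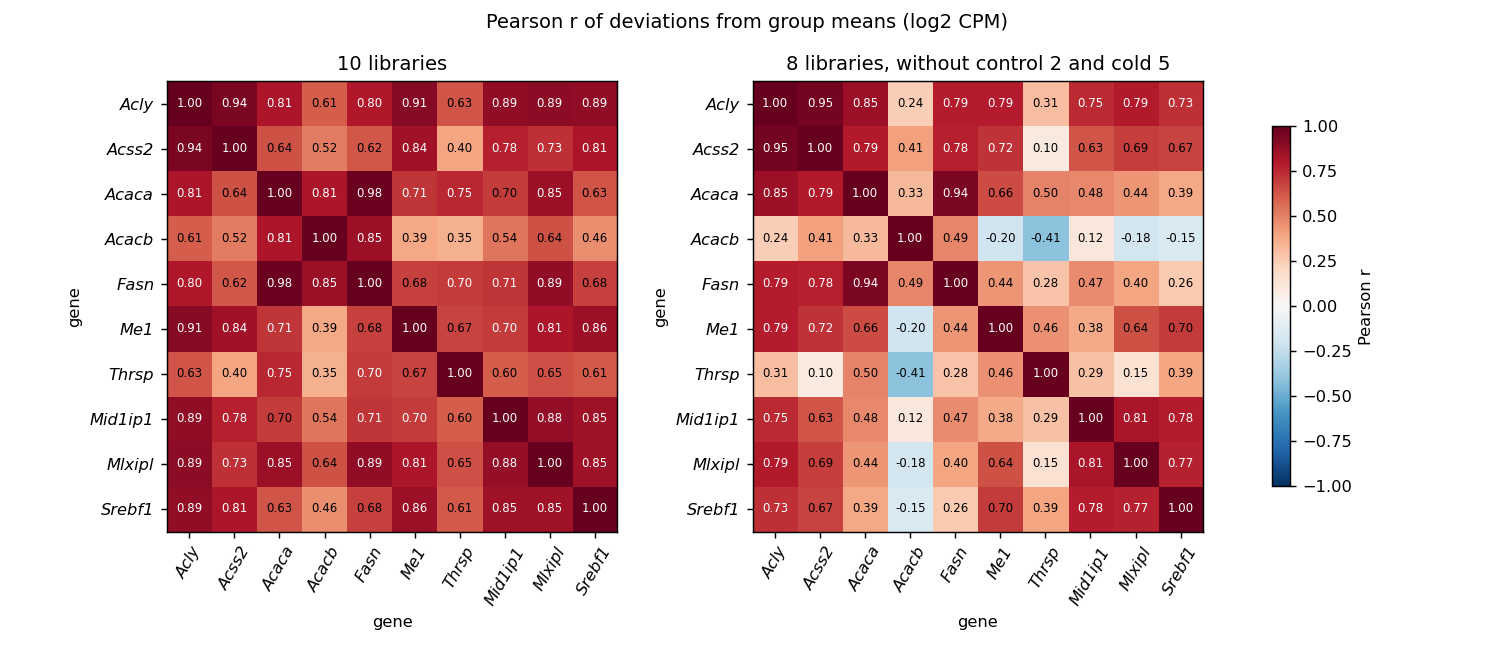
Pearson r between genes (rows and columns) of deviations of log2 CPM from the group means, over 10 libraries on the left and over the 8 left without control replicate 2 and cold replicate 5 on the right. All pairs are positive on the left, with Acaca and Fasn at 0.98, and Acacb loses its link to most genes on the right.

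Fasn served as the reference for tests of covariation across all genes. In limma-trend with group and Fasn in the model, 2 of the other 9 members passed with a positive slope at an adjusted p under 0.05, where 0.107% of all genes did. Acaca changed by 0.96 log2 units per unit of Fasn (SE 0.10, adjusted p = 0.00574 in limma), and Mlxipl by 0.91 (SE 0.16, adjusted p = 0.0435). The call of Mlxipl was lost in 7 of the 10 fits without 1 library (control replicates 1, 2 and 5 and cold replicates 1, 2, 3 and 4) and with no group term. Both calls were lost with the replicate block, and when control replicate 2 and cold replicate 5 were left out at once. All 9 slopes were positive. Of 11148 genes ranked by r with Fasn, Acaca was at rank 1, Mlxipl at 42, Acacb at 94 and Acly at 223, while Acss2 was at 990.

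The 9 relations with Fasn were also tested singly by an exact permutation test over all orders of libraries within groups (two-sided, n = 10). Acaca had r = 0.98 (exact p = 0.000417) and Spearman's rho 0.96 (exact p = 0.000556), and r = 0.94 without the 2 libraries in which Fasn deviated most, control replicate 2 and cold replicate 5. Acly had r = 0.80 (exact p = 0.00292) and rho 0.79 (exact p = 0.00771), and r = 0.79 without them. Mlxipl had r = 0.89 (exact p = 0.00826) and rho 0.79 (exact p = 0.0123), and Acacb r = 0.85 (exact p = 0.00785) and rho 0.82 (exact p = 0.00896). The r of these genes was 0.40 and 0.49 without these 2 libraries, so that both relations rest on them. Thrsp (r = 0.70, exact p = 0.0294, rho 0.69, exact p = 0.0425) and Mid1ip1 (r = 0.71, exact p = 0.0362, rho 0.61, exact p = 0.0721) also rested on them, with r of 0.29 and 0.47 in the other 8. Acss2 (r = 0.62, exact p = 0.0674, rho 0.53, exact p = 0.124), Me1 (r = 0.68, exact p = 0.0622, rho 0.59, exact p = 0.0901) and Srebf1 (r = 0.68, exact p = 0.0993, rho 0.41, exact p = 0.254) did not pass. In the other 8 libraries the r of Acss2 was higher, at 0.78, and those of Me1 and Srebf1 were 0.44 and 0.26. Adjusted over all genes tested in limma, the p of the 7 members other than Acaca and Mlxipl lay between 0.106 and 0.299.

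The reference gene altered how many members passed. With Acly in place of Fasn, 6 members passed (Acss2, Acaca, Me1, Mid1ip1, Mlxipl and Srebf1), where 1.93% of all genes did, and Fasn was at an adjusted p of 0.0507 in limma. With Srebf1, 5 passed (Acly, Acss2, Me1, Mid1ip1 and Mlxipl) against 3.24% of all genes, and Fasn (0.114) and Acaca (0.129) did not. Acacb and Thrsp passed with none of these 3 references. Without control replicate 2 and cold replicate 5, 1 member passed with Acly (Acss2, adjusted p = 0.00422 in limma), against 0.396% of all genes. With Srebf1, 0 members and 0% of all genes passed in limma there. At an unadjusted p under 0.05 with a positive slope there were 5 members, and 525 of the 11357 genes tested. With Fasn again, but without cold replicate 5, 7 members passed against 3.66% of all genes. Without control replicate 2 as well, 0 members and 0% of all genes passed in limma. An unadjusted p under 0.05 with a positive slope was held by 3 members (Acss2, Acaca and Acly), and by 484 of 11357 genes tested.

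The genes outside the set most like Fasn, by the same r over 10 libraries, held other roles. They were Ap1b1 (r = 0.97), an adaptor subunit of vesicle coats, Ppip5k1 (0.96), an inositol pyrophosphate kinase, Zfp697 (0.96), a zinc finger protein, H6pd (0.96), and Pik3r4 (0.94), a subunit of a lipid kinase complex. H6pd encodes the hexose-6-phosphate dehydrogenase that makes NADPH inside the endoplasmic reticulum. Its level was 265 ± 53.5 CPM in the controls and 268 ± 53.0 CPM in the cold. Ppip5k1 and H6pd each had an adjusted p of 0.0181 for the slope on Fasn in limma. Ap1b1 (0.15), Zfp697 (0.193) and Pik3r4 (0.12) did not pass that test. None of the 5 passed the test of cold against control, where their adjusted p lay between 0.0726 and 0.944 in edgeR.

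Genes around the core steps were read from 7 lists of 79 genes, of which 74 were tested. Of these, 9 fell (12.2%) and 8 rose (10.8%), shares near those of all genes. Among genes of substrate supply 2 of 7 fell and 1 rose. Pcx, pyruvate carboxylase, fell from 1260 ± 134 to 712 ± 80.3 CPM and Slc25a1, the citrate carrier that feeds Acly, from 1260 ± 383 to 553 ± 159 CPM. Acss1, the mitochondrial acetyl-CoA synthetase, rose from 374 ± 102 to 558 ± 51.1 CPM, a log2 fold change of 0.57 (adjusted p = 0.0155 in edgeR) opposite in sign to that of its cytosolic relative Acss2. Of 8 NADPH genes 0 passed in edgeR, in DESeq2, in limma-voom or at an unadjusted p under 0.05, and Tkt, transketolase, had the smallest p (log2 fold change -0.31, adjusted p = 0.245).

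Of 13 genes that act on malonyl-CoA or the carboxylases, 1 rose and 1 fell. Mlycd, malonyl-CoA decarboxylase, which removes the product of the carboxylases, rose from 168 ± 21.4 to 318 ± 27.0 CPM (log2 fold change 0.92, SE 0.10, adjusted p = 5.51e-05 in edgeR), with no overlap between groups. Prkab2, a beta subunit of AMPK, the kinase that inhibits both carboxylases, fell from 11.7 ± 1.71 to 7.24 ± 1.01 CPM. The other AMPK subunits listed, named outside the rule below, were more abundant and did not pass. The log2 fold changes of Prkaa1, Prkaa2 and Prkab1 were 0.21, 0.39 and 0.28, and that of Prkag1 was -0.09 (adjusted p 0.0834 to 0.484 in edgeR). Downstream of the synthase, 3 of 14 genes of desaturation, elongation and esterification fell and 2 rose. The desaturase Scd1 and the lipid hydrolase Pnpla3 fell by 1.18 and 1.09 on the log2 scale, and Acsl5, an acyl-CoA synthetase, rose by 1.30.

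Of 11 genes that control SREBP or respond to sterols 0 passed in edgeR, 1 had an unadjusted p under 0.05, and DESeq2 called 1 and limma-voom 0. Scap, the sterol-sensing escort of SREBP, had the smallest p, at a log2 fold change of 0.31 (adjusted p = 0.0573 in edgeR). Of 10 ChREBP partners and targets 1 fell and 1 rose. Khk, ketohexokinase, fell from 19.9 ± 2.44 to 10.7 ± 1.73 CPM, and Gpd1, glycerol-3-phosphate dehydrogenase, rose from 13800 ± 1190 to 21900 ± 3560 CPM. Of 11 genes of insulin input 2 fell and 3 rose. Irs1, an insulin receptor substrate, fell from 74.5 ± 19.2 to 33.8 ± 8.11 CPM, whereas Insr, the insulin receptor, rose from 157 ± 14.8 to 215 ± 14.8 CPM and Mtor, a growth kinase, from 222 ± 47.7 to 314 ± 17.7 CPM.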

How the data were processed

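RNA of interscapular brown adipose tissue from 10 mice was poly-A selected from 4 µg of total RNA, per the labels' protocols. The authors deposited raw counts per RefSeq gene model; the submitters' processing notes name STAR, mm9 and edgeR. No version, counter or strand setting is given in the sources used here, so reads of overlapping genes could not be told apart. The authors' deposited comparison gives log2 fold changes, log2 CPM and p-values. The other deposited column used is the number of bases counted per gene, per the file headers. Control columns carry no group word and were matched by number and by the absence of the word for cold; 0 columns of single libraries were left unused. A treatment tag of the cold samples names room temperature beside 4 °C, and their titles were followed.

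The genes kept by filterByExpr entered 1 fit (edgeR 4.0.16, R 4.3.3, TMM, quasi-likelihood F test, cold against control, no covariate), with two-sided p-values and Benjamini-Hochberg adjustment over 11229 genes at 0.05. The SE is the size of the log2 fold change divided by the square root of F, and 95% intervals use the fit's degrees of freedom. Covariation used limma-trend (limma 3.58.1) on log2 CPM with a prior count of 2. Both procedures were tested on simulated data. Ranking took genes with a mean log2 CPM of at least 1. P-values measure the spread between the mice, which the labels name as separate. Replicate pairs of a group differed beyond sampling noise (chi-square per degree of freedom 3.2 to 36.1). All members were named; of each pathway list up to 3 called genes with the smallest p, or, where none was called, the 1 gene of smallest p; and the 5 genes most like Fasn. The members and lists were chosen with earlier results of these data known. Of 79 listed genes 1 is not analysed here and 4 did not pass the filter on low counts. The alternatives were other scalings, filters, tools (DESeq2 1.42.0 among them), the replicate block, other reference genes and libraries left out.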

Additional observations from a re-analysis of the deposited data

Results flagged for a closer look

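In a screen of 30 sets of 5 values (members' levels, shares and ratios by group), 7 held a library far from the other 4 by Dixon's criterion, where chance flags about 1 in 20. Fasn was at 27730 CPM in cold replicate 5, against 15100 to 17950 CPM in the other cold libraries. Mid1ip1 was at 60.4 CPM in cold replicate 4, against 109.9 to 123.8. Its ratio to Thrsp per kilobase was low in that library too, at 0.00752 against 0.0100 to 0.0106, and high in control replicate 1, at 0.0183 against 0.00344 to 0.00743.

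Control replicate 2 stood apart in 3 ratios per kilobase. Acss2 over Acly was 0.499 there against 0.326 to 0.344 in the other controls, Acacb over Acaca 0.615 against 0.418 to 0.471, and Mlxipl over Srebf1 1.35 against 0.893 to 0.979. The last 2 of these lie toward the cold group and the first lies away from it. What sets this mouse apart was not tested.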

How the results depend on the processing

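The number of members that fell was 2 with every scaling, filter and tool tried and with the replicate number as a block, which changed no call of a member between groups; without 1 library it was 1 to 6, and 7 without control replicate 2 and cold replicate 5. The number that rose was 0 throughout. Of genes in the pathway lists 8 to 11 fell and 6 to 12 rose. The deviations of same-numbered mice had an r from -0.255 to 0.192. No r of differently numbered mice stands beside these values, so whether the numbers pair mice cannot be told from them. The members passing with Fasn as reference numbered 0 with the replicate block, 1 with no group term, 1 to 7 without 1 library and 0 without control replicate 2 and cold replicate 5. They numbered 6 with Acly, 5 with Srebf1 and 1 with Acaca as reference, and, without these 2 libraries, 1 with Acly and 0 with Srebf1; the last 3 were added after seeing the data. The cause was not tested. Mid1ip1 changed sign at -0.27 without control replicate 2 and cold replicate 5 and lay between -0.20 and 0.51 without 1 library, and Mlxipl (-0.05) between -0.22 and 0.084 in such fits, and at -0.34 without both. The ratios of Acss2 to Acly and of Acacb to Acaca kept sign and side of 0.05 in all 11 sets without libraries. Counts of the members were at least 179 in a library, so the spread between mice and not depth limits these tests.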
